A study of Mus musculus with 12 samples.

Results

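The hearts of 2 groups of mouse embryos were compared directly: 3 libraries of the Mib1 mutant against 3 libraries of the triple heterozygote, out of 12 libraries in the series, chosen by the genotypes in their labels. The Mib1 mutant is Mib1 R530X/flox with 1 copy of Tnnt2-Cre, that is, a premature stop allele over a loxP-flanked allele and a Cre recombinase driven by the promoter of cardiac troponin T, which is active in cardiomyocytes. The triple heterozygote carries the same Mib1 R530X allele over a normal one, together with Asxl3 M1415V in its sample labels (M1361V in the protocol) and Apcdd1 V150I, each heterozygous, and no Cre. The other 6 libraries serve as a yardstick: 3 from embryos with 1 loxP-flanked Mib1 allele and Tnnt2-Cre (the Cre control) and 3 from wild-type (WT) embryos. Each library is a pool of 4 pairs of ventricles at the fetal stage E15.5, and the labels give neither the strain of any group nor whether pools shared litters. P-values therefore measure the spread between these pools. The series, by its title, is about a heritable cardiomyopathy and the bicuspid aortic valve.

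Mib1 encodes a ubiquitin ligase that acts in the cell presenting a Notch ligand: it ubiquitinates Delta and Jagged proteins, and their uptake then activates Notch receptors on the neighbouring cell. In the embryonic heart, ligands on cardiomyocytes signal to receptors on the endocardium, and this exchange is known for its part in forming the trabeculae, the muscular ridges that line the ventricle, and the compact wall around them. The stop allele is present in all cells of both the Mib1 mutant and the triple heterozygote, so the designed difference in Mib1 between them is the recombined second allele in cardiomyocytes.

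The direct pair also differs in the Asxl3 and Apcdd1 alleles and in Cre, and may differ in the breeding line, which the labels do not give. The control pair, Cre control minus WT, differs in Cre and in 1 recombined Mib1 allele in cardiomyocytes, and possibly in line, but not in the stop, Asxl3 or Apcdd1 alleles. A gene that differs alike in both pairs therefore follows what the 2 Cre groups have in common, and the difference between the pairs (direct minus control) was tested as its own contrast. Loss of the last functional Mib1 allele, absence of the Asxl3 and Apcdd1 alleles, and line differences not present in the controls cannot be told apart within that contrast. The 2 pairs share no library.

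Library totals ran from 10103548 to 22157720 expected counts, the highest in triple heterozygote replicate 2, so that 1 read corresponded to 0.0452 to 0.0991 CPM, the count scaled for library size. Cardiomyocyte genes marked the tissue, with Tnnt2 at 3935 to 6132 CPM and Myh7 at 16821 to 20195 CPM in the 12 libraries. Of the marker genes of other tissues, Myod1, Rag1 and Sftpc had no read in most libraries. The liver gene Alb and the neural crest gene Sox10 had reads in 10 libraries each, at up to 9.60 and 0.396 CPM. Xist, expressed from an inactive X chromosome, was at 0.095 CPM in Mib1 mutant replicate 1 and 0.387 CPM in Cre control replicate 1, so these pools held male embryos only or nearly so. Erythroid and leukocyte genes also differed between the 2 groups compared. The erythroid list summed to 3795 to 5149.6 CPM in the Mib1 mutant and 7434 to 8658 CPM in the triple heterozygote, and the leukocyte list to 106 to 140.3 and 191 to 221 CPM. Their part in the other results was not tested. Leaving the erythroid list out before scaling kept 348 of 358 calls, and 7 of the 358 were themselves on that list. That step changes the scaling and the genes adjusted for, and cannot remove RNA of blood cells from the counts of other genes.

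Mib1 itself was lower in the Mib1 mutant than in the triple heterozygote by nearly the same log2 amount by which it was lower in the Cre control than in WT. Mib1 (ENSMUSG00000024294; chromosome 18, 10725548 to 10818704, GRCm38 here and throughout) was measured at 54.8, 50.1 and 51.8 CPM in the 3 Mib1 mutant libraries and at 74, 57.9 and 74.1 CPM in the triple heterozygote. The Cre control held 108, 107 and 101 CPM and WT 145, 126 and 136 CPM. In each pair the groups did not overlap, and the 4 groups fell in steps with no overlap between neighbours. Such absence of overlap is common with 3 libraries per group. It was found for 16.2% of all genes tested in the direct pair and 19.1% in the control pair. The log2 fold change was -0.39 (SE 0.09) in the direct pair, at an edgeR adjusted p of 0.0425 (quasi-likelihood, adjusted by Benjamini-Hochberg over all genes tested, as are all that follow). This call was lost in 15 of 23 alternatives, at adjusted p of 0.0527 to 0.162, among them leaving out any single library other than triple heterozygote replicate 2. In the control pair it was -0.37 (SE 0.09) with an edgeR adjusted p of 0.15, and the difference between the pairs was -0.02 (SE 0.13) with an edgeR adjusted p of 0.954. Gene totals do not resolve which exons a transcript of the recombined allele lacks.

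The other 2 genes with engineered alleles gave no call. Asxl3, which binds BAP1 in the Polycomb deubiquitinase, was at 7.79, 4.75 and 7.33 CPM in the Mib1 mutant and 4.63, 6.87 and 6.74 CPM in the triple heterozygote, a log2 difference of 0.11 (SE 0.25) (edgeR adjusted p 0.872). Apcdd1, a membrane inhibitor of Wnt signalling, was at 10.8, 19.4 and 14 and 8.89, 11.4 and 10.5 CPM, a log2 difference of 0.51 (SE 0.17) (edgeR adjusted p 0.147), with overlapping groups. A missense allele need not change the transcript level of its gene.

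Among 13964 genes tested, 358 (2.56%) were called in the direct pair, with an edgeR adjusted p under 0.05, 211 higher (1.51% of tested) and 147 lower (1.05%) in the Mib1 mutant. The control pair gave 39 calls (0.279%), 35 higher (0.251%) and 4 lower (0.0286%), and the difference between the pairs gave 72 calls (0.516%). Set beside each other, the tests sorted the 358 genes into 3 sets. In the first, 29 genes (0.208% of tested) were called in both pairs in the same direction. In the second, 64 genes (0.458% of tested) were called in the direct pair and in the difference between pairs. The remaining 265 were called in the direct pair only, and neither a shared nor a differing effect was shown for them. The number of direct calls depended on single libraries: it was 228 without Mib1 mutant replicate 1, 783 without replicate 2, 210 without triple heterozygote replicate 1 and 212 without its replicate 2. The second set counted 192 genes without Mib1 mutant replicate 2. Without any single one of the other Cre control, Mib1 mutant, triple heterozygote and WT libraries that moved it by over 1.5 times (Cre control 2 and 3, Mib1 mutant 3, triple heterozygote 1 and 2, all WT), it counted 28 to 39.

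The signed median difference of the called genes was small in the control pair. Those that were higher in the Mib1 mutant had a median log2 difference of 0.65 in the direct pair and 0.03 in the control pair, and those that were lower had -0.73 and -0.08. Over all genes tested the medians were 0.01 and -0.00. The control difference was under 0.25 in size for 249 of the 358 called genes (69.6%), against 81.5% of all genes tested. Of the 358 genes, 219 (61.2%) had the same sign in both pairs, against 45.3% of all genes tested, and outside the first set it was 190 of 329 (57.8%). The Pearson correlation of the 2 log2 differences across all 13964 genes was 0.56 and the Spearman correlation -0.05. Without the first set the Pearson value was 0.28, and over the 329 called genes outside that set it was 0.65. Over the 12220 genes with a mean of at least 2 CPM that are not processed pseudogenes it was 0.39. A Pearson value can rest on few genes with large differences, and no Spearman value was taken over the 329. These are correlations across genes of the same 12 libraries, given as a description. In the second set, all 3 Mib1 mutant libraries lay outside the range of the other 9 libraries for 50 genes of 64 and all 3 triple heterozygote libraries did so for 8, against 5.75% and 1.23% of all genes tested. Among the 265 unresolved genes the counts were 190 and 31. Being called favours such separation, so these counts describe the sets.

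**Figure D1:**
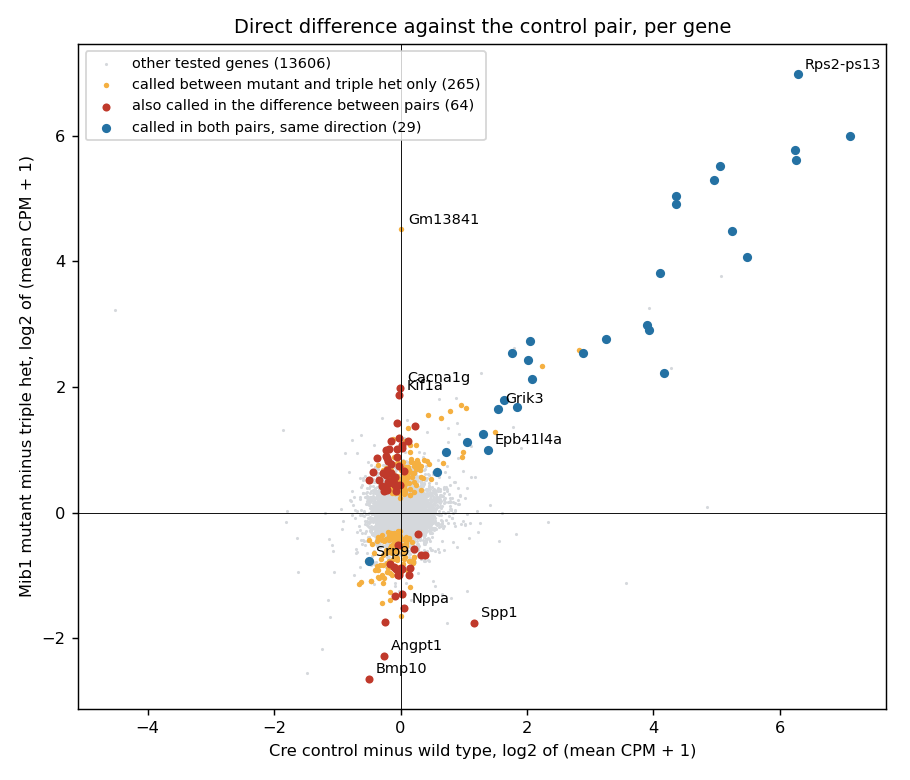
Each point is a gene, with the Cre control minus WT difference on the horizontal axis and the Mib1 mutant minus triple heterozygote difference on the vertical axis, both as log2 of (mean CPM + 1). The 29 genes called in both pairs (blue) lie along a rising diagonal, and the 64 genes called in the direct pair and in the difference between pairs (red) lie near 0 on the horizontal axis, with Spp1 to the right.

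The first set was made of genes that followed the 2 Cre groups. Of its 29 genes, 28 were higher and 1 was lower in both the Mib1 mutant and the Cre control. By annotation 18 are processed pseudogenes, retrotransposed copies of a messenger RNA without introns, 10 are protein coding and 1 is a lincRNA. Processed pseudogenes make up 1.71% of the genes tested, and 24 of the 239 tested (10%) were called in the direct pair. In 8 of the 29 genes no read was counted in any triple heterozygote or WT library, and in 13 the 6 libraries together held at most 3 counts.

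A first group of protein-coding genes had reads in every library and moved the same way in both pairs. Epb41l4a, a gene of the band 4.1 family of membrane-cytoskeleton linkers (ENSMUSG00000024376; chromosome 18, 33796327 to 34006966), was at 25.8, 23.6 and 24.7 CPM in the Mib1 mutant and 12.4, 12.4 and 10.7 CPM in the triple heterozygote. The Cre control held 29.9, 31.4 and 31.7 CPM and WT 12, 11.4 and 10.5 CPM, so both Cre groups lay above both groups without Cre, and the Cre control lay above the Mib1 mutant. Its log2 differences were 1.05 (SE 0.09) and 1.46 (SE 0.09), with edgeR adjusted p of 1.63e-05 and 1.05e-06.

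Socs2, a feedback inhibitor of growth hormone signalling, was at 45.2, 49.9 and 37.6 CPM in the Mib1 mutant against 23.3, 21.6 and 21.5 CPM in the triple heterozygote. The control pair held 33, 34.5 and 35.6 CPM against 19, 21.6 and 20.8 CPM. The log2 differences were 1.0 and 0.75 (edgeR adjusted p 3.52e-05 and 0.00171), without overlap in either pair. Grik3, a kainate-type glutamate receptor subunit, was at 16.4, 10.8 and 17.6 against 3.63, 4.66 and 3.86 CPM in the direct pair and 9.86, 12.8 and 20.6 against 4.85, 4.13 and 3.86 CPM in the control pair, which gave 1.86 and 1.77 (edgeR adjusted p 0.000649 and 0.0037). Bhlhe40, a transcriptional repressor of the circadian system, differed by 0.65 and 0.60 (edgeR adjusted p 0.00143 and 0.0144), with 58.2 to 69.8 and 54.5 to 63.2 CPM in the 2 Cre groups and 36.2 to 46 and 37.6 to 40.2 CPM in the others.

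A second group of protein-coding genes was at or near 0 in every library without Cre. They were singled out after their values were seen. Mmrn1, encoding multimerin of platelets and endothelium (ENSMUSG00000054641; chromosome 6, 60924976 to 60989378), was at 2.19, 0.932 and 1.03 CPM in the Mib1 mutant and 1.93, 1.51 and 0.947 CPM in the Cre control, and had 0 counts in all 6 triple heterozygote and WT libraries. Its level was at least 19.7-fold higher in the Mib1 mutant than the limit of 3 counts over the group that a count of 0 allows, and at least 16.6-fold higher in the Cre control. Pou3f2, a transcription factor of the POU family, held 1.90, 1.86 and 3.79 CPM in the Mib1 mutant, 3.77, 1.33 and 1.49 CPM in the Cre control, and 1 read in each of the 2 groups without Cre. The labels name no strain, and the origin of these low counts was not tested.

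The pseudogenes of the first set share most of their sequence with a gene that is expressed from elsewhere in the genome, and the reads were 60 bases long. Of all 60-base windows in the transcripts of the 18 pseudogenes, a median of 82% also occurred exactly in another annotated gene, close to the 75.22% over all 239 pseudogenes tested, while it was 0.163% for the other 11 genes of the set and 0 for the second set. The pairs below show how few bases tell copy and gene apart. Each line is a stretch of 60 bases of the GENCODE transcript, in the sense of the transcript, with capitals on the bases that differ within the pair. Rps2-ps13 (chromosome X, 52898588 to 52899469) differs from Rps2, a protein of the small ribosomal subunit, at 7 of 882 aligned bases. Gm11223 differs from Stmn1, which encodes a microtubule-destabilising protein, at 1 of 450, and Atp6v0c-ps2 from Atp6v0c, a subunit of the vacuolar proton pump, at 1 of 465.
Rps2-ps13: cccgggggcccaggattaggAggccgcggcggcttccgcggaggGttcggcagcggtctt
Rps2: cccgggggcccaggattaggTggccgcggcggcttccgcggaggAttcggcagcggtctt
Gm11223: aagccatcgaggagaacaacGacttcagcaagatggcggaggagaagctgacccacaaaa
Stmn1: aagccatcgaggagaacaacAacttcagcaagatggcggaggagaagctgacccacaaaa
Atp6v0c-ps2: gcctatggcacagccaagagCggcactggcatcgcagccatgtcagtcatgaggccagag
Atp6v0c: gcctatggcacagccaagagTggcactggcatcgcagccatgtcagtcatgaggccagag
Gm13736 and Gm10182 matched Srp9 and Hmgn2 without a single differing base over their whole annotated length.

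Rps2-ps13 was at 172, 80.9 and 128 CPM in the Mib1 mutant and 48.7, 72.7 and 109 CPM in the Cre control, and at 0 or 0.0452 CPM in the other 6 libraries. Rps2 itself was at 173, 295 and 216 CPM in the Mib1 mutant and 365, 424 and 374 CPM in the triple heterozygote, and was called lower at a log2 difference of -0.77 (edgeR adjusted p 0.00971), a call lost without triple heterozygote replicate 2 (0.0589). When the counts of gene and copy were added, the means were 355 ± 18 CPM in the Mib1 mutant and 388 ± 31.4 in the triple heterozygote (SD, n = 3), and the log2 ratio of the means moved from -0.77 to -0.13. In the control pair it moved from -0.18 to 0.15, a change of sign. Rps2-ps13 was called higher in both Cre groups, so adding it raises the ratio by arithmetic.

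Srp9, which encodes a protein of the signal recognition particle, was the only gene of the first set that was lower in the Cre groups. It was at 28.3, 31.1 and 32.2 CPM in the Mib1 mutant against 55.8, 54 and 48.9 CPM in the triple heterozygote, and at 40.9, 37.2 and 32.7 against 53, 53.1 and 51.8 CPM in the control pair, with log2 differences of -0.79 and -0.52 (edgeR adjusted p 0.000121 and 0.0175). Its identical copy Gm13736 was at 16.4, 19.9 and 16.6 CPM and 12.7, 23.8 and 21.1 CPM in the 2 Cre groups and between 3.21 and 6.01 CPM in the others. Summed over both, the log2 ratio of the means was -0.26 in the direct pair and -0.03 in the control pair, in place of -0.79 and -0.51 for Srp9 alone. For Atp6v0c with its copy the direct ratio moved from -0.63 to -0.18, for Stmn1 with Gm11223 from -0.34 to -0.12, and for Eno1, the glycolytic enolase, with Eno1b and Gm4735 from -0.32 to -0.19. The control ratios of the same 3 moved from -0.20 to 0.07, from -0.26 to 0.04 and from -0.20 to -0.01. The added copies were all called higher in both Cre groups, so the direction of these moves was fixed by arithmetic. Closest genes of other pseudogenes of the set were not summed, such as Wtap, Tdg, Rnps1 and Rps18. Their direct log2 differences were -0.03, -0.13, -0.46 and -0.51.

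Eno1b, annotated as a second enolase gene but identical to Eno1 over 99.45% of 1652 aligned bases, was at 39, 30 and 92.5 CPM in the Mib1 mutant and 77.3, 70.8 and 108 CPM in the Cre control. It had 0 counts in all triple heterozygote libraries and a read value in 1 WT library only (0.421 CPM), which makes it at least 792-fold higher in the Mib1 mutant than the limit of 3 counts over the group. The gene of origin of these reads was not tested.

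Gm13841 stood apart from the first set. This processed pseudogene, which matches Rpl29 at 99.38% of 483 bases, was at 26.3, 22.8 and 18.4 CPM in the Mib1 mutant, at 0, 0 and 0.0991 CPM in the triple heterozygote, and at 0 counts in all Cre control and WT libraries. It was the only gene called in the direct pair without a read in the control pair, where no difference between pairs can be estimated. It was singled out after its values were seen. Rpl29 was at a mean of 218 CPM in the Mib1 mutant and 272 in the triple heterozygote, a log2 difference of -0.32 that did not pass (edgeR adjusted p 0.0928).

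**Figure D2:**
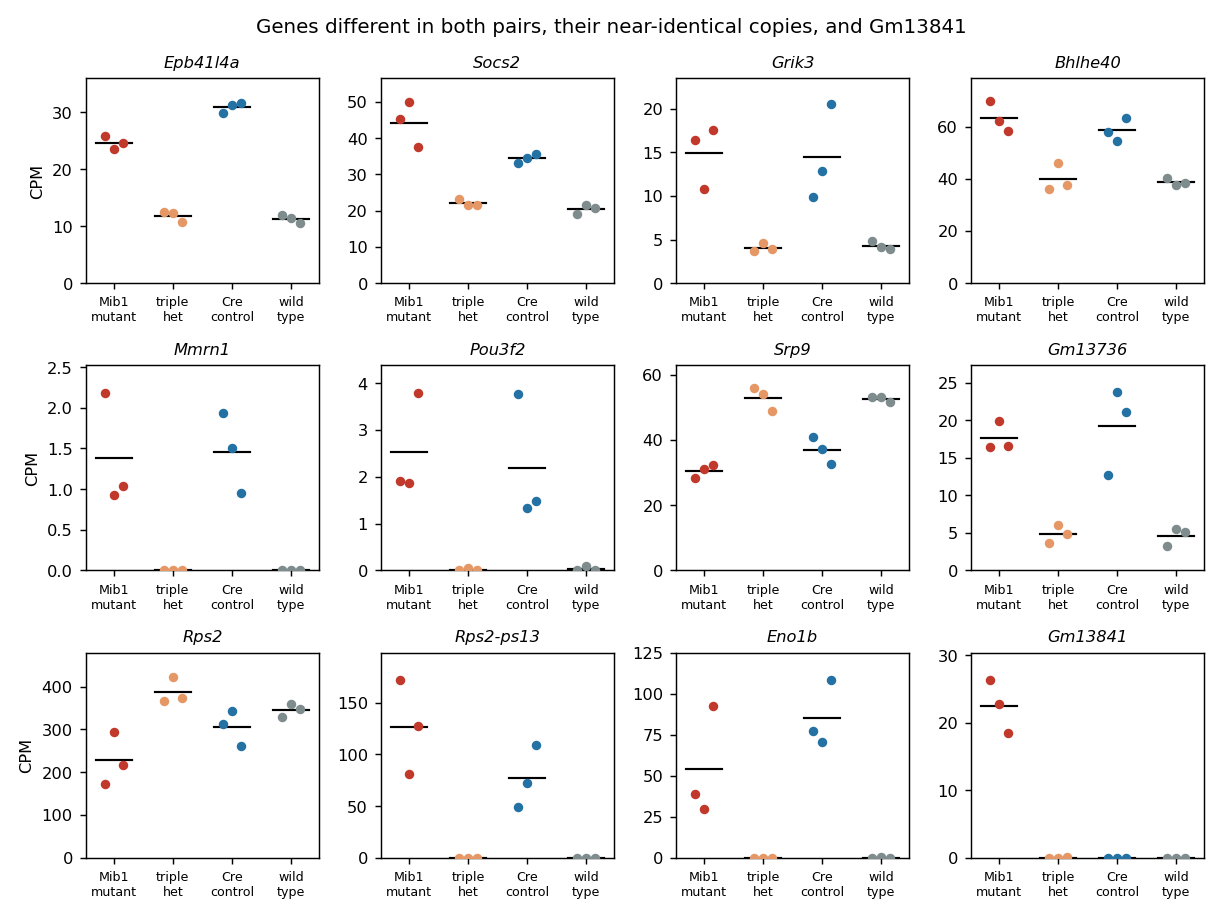
Each panel shows the CPM of 1 gene in the 12 libraries (points) with the group mean (line), on an axis that starts at 0. Both Cre groups, red and blue, lie above the other 2 for Epb41l4a, Socs2, Grik3, Bhlhe40, Mmrn1, Pou3f2, Gm13736, Rps2-ps13 and Eno1b and below them for Srp9, whereas Gm13841 has reads in the Mib1 mutant and 1 further library.

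The second set of 64 genes, 41 higher and 23 lower in the Mib1 mutant than in the triple heterozygote, held 62 protein-coding genes and no processed pseudogene. The median size of the log2 difference was 0.87 in the direct pair and 0.15 in the control pair. In 48 of the 64 genes the control difference was under 0.25 in size, as it was in 81.5% of all genes tested. Being called in the difference favours genes whose control difference is small or opposite, so these medians describe the choice.

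Most of the trabecular and atrial genes that were called fell. Of all genes tested 1.05% were called lower and 1.51% higher, the shares to set beside this list and every list below. Of 13 tested genes of the trabecular list 6 were lower and 1, Kcne1, was higher in the Mib1 mutant. Of these 7 genes 5 were also called in the difference. The list's median log2 difference was -0.56 against -0.05 in the control pair. In the atrial list 5 of 17 were lower and 1, Dkk3, was higher, with medians of -0.12 and -0.10. Bmp10, Nppa and Gja5 are among the lower genes of both lists, so the 2 counts overlap. None of 12 genes of the ventricular list was called by edgeR or limma-voom, 2 were by DESeq2, and 4 had an unadjusted edgeR p under 0.05. In pooled tissue, fewer cells of a type and less RNA per cell cannot be told apart.

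Bmp10, a growth factor of trabecular and atrial cardiomyocytes (ENSMUSG00000030046; chromosome 6, 87428994 to 87437677), was at 5.51, 2.33 and 5.69 CPM in the Mib1 mutant and 28.8, 29.2 and 41.9 CPM in the triple heterozygote. The Cre control held 36.7, 19.5 and 27.5 CPM and WT 49.1, 30.6 and 40.4 CPM, so the 3 Mib1 mutant libraries lay below all 9 others. It was 7.28-fold lower, a log2 difference of -2.86 (SE 0.30) (edgeR adjusted p 5.55e-05), beside -0.52 in the control pair and -2.34 for the difference between pairs (edgeR adjusted p 0.0136).

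Nppa, which encodes atrial natriuretic peptide and marks trabeculae at this stage, was at 175, 481 and 299 CPM in the Mib1 mutant and 983, 920.2 and 846 CPM in the triple heterozygote, and between 705 and 887 CPM in the 6 control-pair libraries. The Mib1 mutant pools differed among themselves more than any other group, yet all 3 lay below the other 9. The log2 difference was -1.53 (SE 0.23) (edgeR adjusted p 0.00162) beside 0.05 in the control pair. The difference between pairs, -1.58 (edgeR adjusted p 0.0455), was lost at 0.0548 to 0.134 without any single Cre control, triple heterozygote or WT library or Mib1 mutant replicate 3.

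Gja5, the gap junction protein connexin 40 of trabeculae and the conduction system, was at 60.9, 37.4 and 45.4 CPM against 125, 129 and 112 CPM, 2.55-fold lower (log2 difference -1.35, edgeR adjusted p 5.79e-05), with -0.09 in the control pair and -1.26 between pairs (edgeR adjusted p 0.00815). Cited1, a transcriptional coactivator expressed in trabecular myocardium, was at 62, 81.8 and 69 against 144, 159.7 and 123 CPM. Here the Mib1 mutant lay below and the triple heterozygote above the 6 control-pair libraries, which ran from 111 to 122 CPM. Its log2 difference was -1.0 (edgeR adjusted p 5.15e-05), and -0.99 between pairs (edgeR adjusted p 0.00623). The guidance cue genes Sema3a and Slit2 were also lower, by log2 differences of -1.05 and -0.91 (edgeR adjusted p 0.000621 and 0.00907), without a call for the difference.

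Genes of the compact wall gave a mixed picture. Of 12 tested, 3 were higher and 1 was lower. Tnc, the matrix glycoprotein tenascin C, was at 97.8, 109 and 104 CPM against 51.8, 64.4 and 69.5 CPM (log2 difference 0.74, edgeR adjusted p 0.000979). Tbx20, a cardiac T-box factor, was higher by 0.39 (edgeR adjusted p 0.00385), a call lost when only these 6 libraries were fitted (0.0597). Of 32 sarcomere genes 29 had a negative log2 difference, with a median of -0.13 against 0.01 in the control pair. By edgeR and by limma-voom 1 was called, by DESeq2 5, and 14 had an unadjusted edgeR p under 0.05. The gene called by edgeR was Myom2, a protein of the sarcomeric M band, which was higher by 0.88 (edgeR adjusted p 0.00405).

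**Figure D3:**
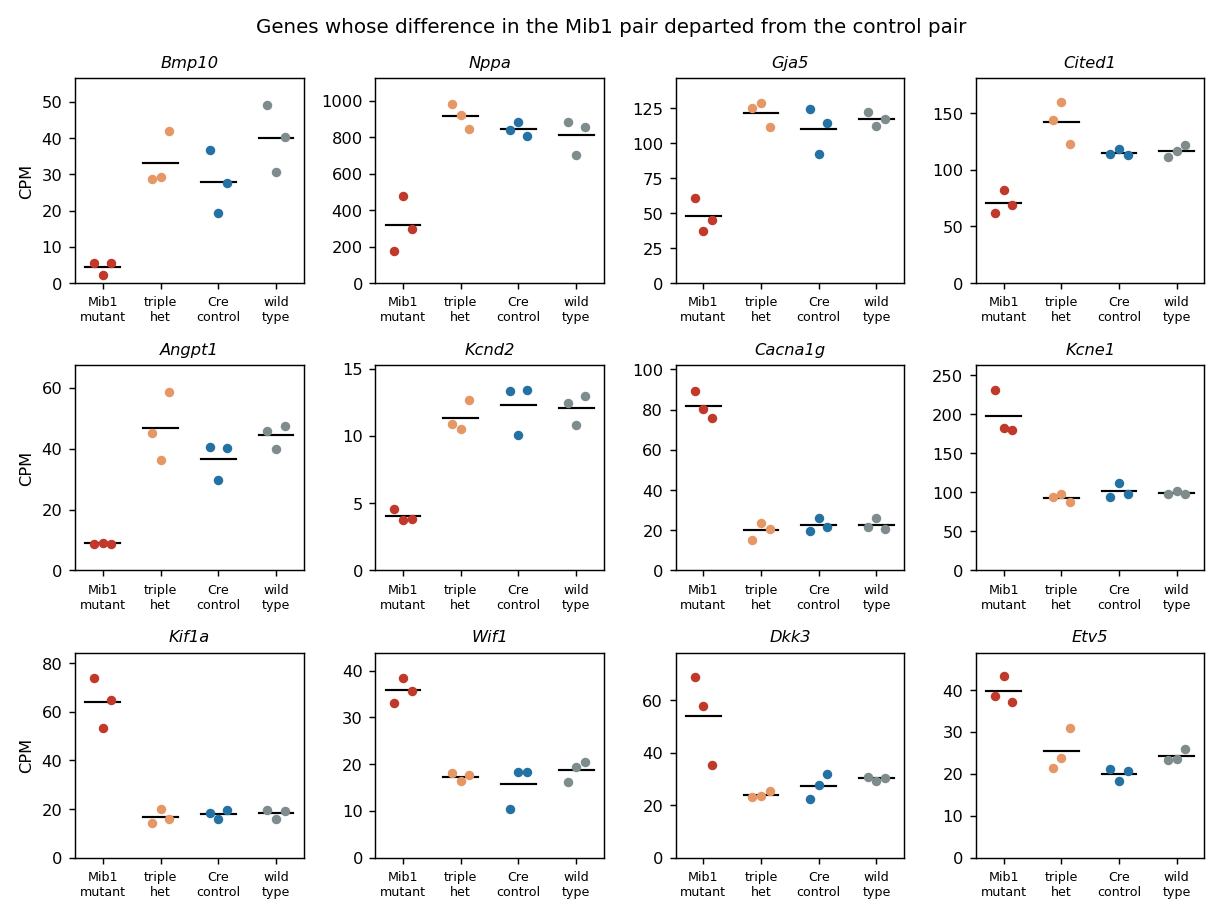
Each panel shows the CPM of 1 gene in the 12 libraries (points) with the group mean (line), on an axis that starts at 0. For these 12 genes, all called in the difference between pairs, the 3 Mib1 mutant libraries lie below (Bmp10, Nppa, Gja5, Cited1, Angpt1, Kcnd2) or above (the others) the 9 libraries of the other groups.

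Ion channel genes moved in both directions. Cacna1g, a T-type calcium channel of pacemaker and conduction cells (ENSMUSG00000020866; chromosome 11, 94408391 to 94474198), was at 89.1, 80.4 and 76 CPM in the Mib1 mutant and 15.2, 23.7 and 20.7 CPM in the triple heterozygote, with 19.6 to 25.9 CPM in the 6 control-pair libraries. It was 4.06-fold higher (log2 difference 2.02 (SE 0.14), edgeR adjusted p 1.11e-06), with -0.01 in the control pair and 2.04 between pairs (edgeR adjusted p 0.000711). Kcne1, an accessory subunit of the slow delayed rectifier potassium channel, was at 232, 183 and 179.9 CPM against 94.6, 98 and 87.4 CPM, 2.12-fold higher (edgeR adjusted p 1.73e-05; between pairs 1.06, edgeR adjusted p 0.00476).

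Kcnd2, a pore subunit of the transient outward potassium current, fell. It was at 4.56, 3.73 and 3.79 CPM in the Mib1 mutant and 10.9, 10.5 and 12.7 CPM in the triple heterozygote, a log2 difference of -1.49 (edgeR adjusted p 7.32e-05) and of -1.51 between pairs (edgeR adjusted p 0.00623). Its relative Kcnd3 fell by 1.28 (edgeR adjusted p 0.0207) and the atrial inward rectifier subunit Kcnj3 by 0.82 (edgeR adjusted p 0.00867), neither called between pairs. Kcnk3, a background potassium channel, was at 25, 27.3 and 24.7 against 40.6, 44.7 and 38.6 CPM (log2 difference -0.69, edgeR adjusted p 0.00357), with a control-pair value of 0.32 (edgeR adjusted p 0.424) and a difference between pairs of -1.01 (edgeR adjusted p 0.0114). Of 21 tested potassium channel genes, 4 were lower and 1 higher.

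Among 25 genes of calcium channels and cycling, Cacna2d2, an auxiliary calcium channel subunit, was lower at 19.7, 30.4 and 20.7 against 36.5, 42.8 and 37.3 CPM (log2 difference -0.73, edgeR adjusted p 0.0356). That call was lost in 7 alternatives (0.0581 to 0.153), among them without Mib1 mutant replicate 1 or 3, without any single triple heterozygote library or without WT replicate 3. Hrc, a calcium-binding protein of the sarcoplasmic reticulum, was lower by a log2 difference of -0.54 (edgeR adjusted p 0.000452), at 89.8 to 94.9 against 132 to 134 CPM.

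Promoters of the second set were searched for short motifs in the RefSeq start-site table of GRCm38.p6, from 250 bases before to 50 after each start. Of 13963 tested symbols, 10492 matched. The letters TGGGAA, the core bound by RBPJ, the DNA-binding partner of Notch, occurred on either strand in 9 of 19 promoters of the lower genes (47.4%) and 8 of 30 of the higher genes (26.7%), against 23.2% of all. The 9 include both alpha globin genes, whose promoters are near copies. TATAAA occurred in 5 of 19 and 5 of 30, against 7.01%, and the E-box CACGTG in 0 of 19 and 2 of 30, against 10.2%. These are counts of letters, with no test, and say nothing of binding. The promoters below are examples, from genes that were lower (Bmp10, Kcnd2) and higher (Adamtsl2, a secreted matrix protein, log2 difference 1.46, edgeR adjusted p 2.07e-05), each on the plus strand with TGGGAA and TATAAA in capitals. Their positions are chr6:87428744-87429043, chr6:21215096-21215395 and chr2:27079129-27079428.
Bmp10: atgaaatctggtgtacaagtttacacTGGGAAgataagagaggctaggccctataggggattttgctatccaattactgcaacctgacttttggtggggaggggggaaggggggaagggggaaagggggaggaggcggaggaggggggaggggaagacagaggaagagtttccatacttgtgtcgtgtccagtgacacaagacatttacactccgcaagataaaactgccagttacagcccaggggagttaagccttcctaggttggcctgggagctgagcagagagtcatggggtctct
Kcnd2: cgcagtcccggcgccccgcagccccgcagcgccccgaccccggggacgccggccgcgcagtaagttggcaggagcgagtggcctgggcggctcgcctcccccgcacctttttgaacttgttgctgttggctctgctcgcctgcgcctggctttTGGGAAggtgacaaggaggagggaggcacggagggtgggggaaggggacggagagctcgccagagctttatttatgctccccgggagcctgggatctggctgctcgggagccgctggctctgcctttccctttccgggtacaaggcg
Adamtsl2: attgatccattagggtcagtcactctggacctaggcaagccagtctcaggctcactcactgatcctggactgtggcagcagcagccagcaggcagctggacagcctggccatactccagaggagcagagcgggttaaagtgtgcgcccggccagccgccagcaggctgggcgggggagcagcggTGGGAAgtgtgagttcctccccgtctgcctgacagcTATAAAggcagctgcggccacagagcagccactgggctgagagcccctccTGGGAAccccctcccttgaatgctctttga

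Ligands and receptors that link muscle and vessels differed as well. Angpt1, whose protein activates Tie2 on endothelium (ENSMUSG00000022309; chromosome 15, 42424723 to 42676977), was at 8.74, 9.04 and 8.79 CPM in the Mib1 mutant and 45, 36.4 and 58.8 CPM in the triple heterozygote, and between 29.6 and 47.4 CPM in the control-pair libraries. It was 5.22-fold lower (log2 difference -2.38 (SE 0.17), edgeR adjusted p 1.68e-06), with -0.27 in the control pair and -2.11 between pairs (edgeR adjusted p 0.000824). Angpt2, the other main Tie2 ligand, was higher by 0.93 (edgeR adjusted p 0.0456), a call that was not followed through the alternatives. There the triple heterozygote lay below all other libraries, at 2.27, 1.99 and 2.38 CPM, while the Mib1 mutant, at 5.13, 3.64 and 3.79 CPM, overlapped the Cre control, at 3.77, 3.37 and 2.50 CPM.

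The apelin receptor gene Aplnr, expressed in coronary and endocardial endothelium, was at 29.1, 31.8 and 30.4 CPM in the Mib1 mutant against 55.4, 55.8 and 60.8 CPM (log2 difference -0.91, edgeR adjusted p 2.17e-05; between pairs -0.84, edgeR adjusted p 0.00623), below all 9 others. The gene of its ligand, Apln, was higher by 0.51 (edgeR adjusted p 0.0256). The netrin receptor gene Unc5b was higher by 0.59 (edgeR adjusted p 0.00345). Of 26 endothelial genes 1 was higher and 2 were lower, with a median of 0.01, and the list summed to 2346 to 2729 CPM in the Mib1 mutant and 2434 to 2574 CPM in the triple heterozygote, ranges that overlap.

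Some components of the Notch pathway itself were called, beside 2.56% of all genes tested. Of 13 tested genes for ligands and their ubiquitin ligases, 2 were called: Mib1 and Dll1. Dll1, a Delta-type ligand, was at 3.33, 3.45 and 3.62 CPM in the Mib1 mutant and 8.08, 6.46 and 8.13 CPM in the triple heterozygote, 2.16-fold lower (edgeR adjusted p 0.00676). The Cre control held 3.90 to 6.15 CPM and WT 4.85 to 7.07 CPM, all above the Mib1 mutant, with WT overlapping the triple heterozygote, and the difference between pairs was -0.87 (edgeR adjusted p 0.22). None of 24 receptor and processing genes was called by edgeR or limma-voom, 1 was by DESeq2, and 7 had an unadjusted edgeR p under 0.05. Of 15 target genes Bmp10 alone was called, which is also in the trabecular list.

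Wnt pathway genes were called in both directions. Of 35 tested, 4 were higher and 2 lower in the Mib1 mutant, with a median of 0.23 against -0.08 in the control pair. The list summed to 959.9 to 1098 CPM against 775 to 881 CPM in the triple heterozygote. Of the higher genes, Wif1 and Dkk3, which encode secreted proteins, were also called between pairs. Wif1, which binds Wnt proteins, was at 33.2, 38.5 and 35.8 CPM against 18.1, 16.4 and 17.6 CPM, 2.07-fold higher (edgeR adjusted p 0.00145; between pairs 1.29, edgeR adjusted p 0.0217). That difference was lost (0.0551 to 0.0851) without Mib1 mutant replicate 3, triple heterozygote replicate 1 or 2 or WT replicate 2 or 3.

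Dkk3, a Dickkopf family member that is also an atrial gene, was at 68.8, 58 and 35.5 CPM against 23, 23.7 and 25.4 CPM (2.25-fold, edgeR adjusted p 0.00179). Between pairs it was 1.31 (edgeR adjusted p 0.0341), a call lost in 11 alternatives (0.0548 to 0.156), among them without Cre control 1 or 2, Mib1 mutant 1, or any single triple heterozygote or WT library. The receptor genes Fzd2 and Fzd6 were higher by 0.62 and 0.31 (edgeR adjusted p 0.00101 and 0.0339). Fzd8 was lower by 0.46 on the log2 scale (edgeR adjusted p 0.0294), and its control difference was -0.53. Sfrp5, a secreted Frizzled-related inhibitor, had 0.0950, 1.12 and 0.517 CPM against 3.27, 3.89 and 2.28 CPM and was lower (log2 difference -2.45, edgeR adjusted p 0.00613).

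Of 18 tested genes in a list that joins ERK response genes with neuregulin, ErbB and ephrin signalling components, 3 were called, all higher in the Mib1 mutant. Of all genes tested, 1.51% were called higher. The log2 difference was positive in 18 of 18, with a median of 0.23 against -0.06 in the control pair and 0.01 over all genes in the direct pair. Genes of 1 list share libraries and scaling, so these signs are not independent. Etv5, an ETS factor, was at 38.5, 43.3 and 37.2 against 21.4, 23.7 and 30.9 CPM (log2 difference 0.65, edgeR adjusted p 0.00588; between pairs 0.94, edgeR adjusted p 0.0224). The feedback inhibitor Spry4 was at 27.7, 25.2 and 27 against 17.5, 19.1 and 19.5 CPM (0.51, edgeR adjusted p 0.00776; between pairs 0.71, edgeR adjusted p 0.0257). Both between-pair calls were lost without Cre control replicate 2 or 3, triple heterozygote replicate 1 or 2 or WT replicate 1 or 2 (and Etv5 without WT 3, Spry4 without Mib1 mutant 1 or 3), at 0.0508 to 0.0851 and 0.0623 to 0.0933. Etv4 was higher by 0.80 (edgeR adjusted p 0.0405), a call lost in 8 alternatives (0.056 to 0.152), among them without Mib1 mutant replicate 2 or 3, triple heterozygote 1 or 3, Cre control 3 or WT 2.

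In the BMP and TGF-beta list 3 of 30 genes were higher and 2 lower. Id2, a target of BMP signalling and a conduction gene, was at 72.6 to 84.5 CPM against 54.4 to 56.3 CPM (log2 difference 0.50, edgeR adjusted p 0.00111). Smad9, a receptor-activated Smad, was 2.56-fold higher (edgeR adjusted p 0.00162), with the Mib1 mutant above and the triple heterozygote below all other libraries. Besides Bmp10, Bmp5 was lower, at 13.1, 10.8 and 13.6 against 19.2, 18.3 and 20.2 CPM (log2 difference -0.62, edgeR adjusted p 0.00681; between pairs -0.84, edgeR adjusted p 0.0248).

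Matrix genes followed. Of 32 fibroblast and matrix genes 3 were called, all higher, beside 1.51% of all genes tested called higher. Thbs1, thrombospondin 1, was at 105, 102 and 76.4 against 43.4, 48.7 and 59 CPM (1.88-fold, edgeR adjusted p 0.00227). Between pairs it was 1.14 (edgeR adjusted p 0.0241), lost (0.0641 to 0.156) without Cre control 1 or 2, Mib1 mutant 1, triple heterozygote 1 or 2 or WT 2 or 3. Eln, elastin, was at 102, 149 and 93.3 against 26.6, 53.9 and 70.4 CPM (2.28-fold, edgeR adjusted p 0.0158, and 0.0521 to 0.0625 without triple heterozygote replicate 2 or without the pools of 1 sex). Fbn2, fibrillin 2, was higher by 0.49 (edgeR adjusted p 0.00514). Thbs4, a relative of Thbs1 that is in no list, was at 102, 133 and 121 against 56.2, 61.6 and 57.1 CPM (log2 difference 1.02, edgeR adjusted p 3.52e-05; between pairs 1.08, edgeR adjusted p 0.00509).

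The smooth muscle list held 1 higher and 1 lower gene of 16. Tagln, transgelin, was at 53.5, 93 and 70.2 against 42.7, 51.2 and 43.5 CPM (log2 difference 0.65, edgeR adjusted p 0.0234), and at 28.2, 27.1 and 28.7 CPM in the Cre control and 38.1, 40.1 and 36.7 CPM in WT. Its difference between pairs was 1.10 (edgeR adjusted p 0.0289). The direct call was lost (0.0591 to 0.108) without Mib1 mutant 3 or triple heterozygote 1 or 3, and that between pairs (0.0546 to 0.0991) without Mib1 mutant 3 or any single library of the other 3 groups. Myh11, smooth muscle myosin, was at 1.43, 1.12 and 0.259 against 2.63, 3.12 and 3.77 CPM (log2 difference -1.77, edgeR adjusted p 0.0406). Its call was lost in 11 alternatives (0.0512 to 0.117), among them without Mib1 mutant 3, Cre control 1 or any single triple heterozygote or WT library.

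Respiratory chain genes had small negative differences throughout, and few passed. All 51 nuclear and all 13 mitochondrial respiratory chain genes had a negative log2 difference, with medians of -0.25 and -0.32 against 0.03 and -0.02 in the control pair, but 1 and 2 genes passed. These were Cox6a2 at -0.74 (edgeR adjusted p 0.028), mt-Nd5 at -0.41 (edgeR adjusted p 0.0172) and mt-Nd4l at -0.42 (edgeR adjusted p 0.0268). Both mitochondrial calls were lost, at up to 0.109, without Mib1 mutant 1 or 3 or triple heterozygote 1, and that of mt-Nd4l without triple heterozygote 2 or 3 as well. Ribosomal protein genes also had negative differences, in 48 of 48 with a median of -0.19, and 2 were called, Rps2 (above) and Rpsa at -0.62 (edgeR adjusted p 0.00681), where the triple heterozygote lay above all other libraries. Genes of 1 complex share libraries and scaling, so these counts are not independent.

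Of 37 glutathione and antioxidant genes 4 were lower and 1 higher. Gpx3, the secreted glutathione peroxidase, was at 135, 165 and 130.2 CPM in the Mib1 mutant and 260.3, 300.4 and 302 CPM in the triple heterozygote, 2.0-fold lower (edgeR adjusted p 3.52e-05), with -0.04 in the control pair and -0.96 between pairs (edgeR adjusted p 0.00623). Mgst3, a microsomal glutathione transferase, was lower by a log2 difference of -0.58 (edgeR adjusted p 0.0059). Nnt, the mitochondrial transhydrogenase, which is known to be defective in some C57BL/6 substrains, was at 383, 403 and 352 against 500.4, 475 and 489 CPM (log2 difference -0.36, edgeR adjusted p 0.00676, and 0.0845 when only these 6 libraries were fitted). In the glycolysis list 3 of 30 genes were called: Aldoc, a brain-type aldolase, higher by 0.84 (edgeR adjusted p 0.000833), Ldhb lower (-0.40, edgeR adjusted p 0.0101, and 0.0534 to 0.055 in the 6 libraries alone or without triple heterozygote 2) and the glucose transporter Slc2a3 higher (0.77, edgeR adjusted p 0.0494). Slc2a3 was at 58.2, 33.5 and 30.5 CPM in the Mib1 mutant, and its call was lost in 17 of 23 alternatives (0.0502 to 0.211), among them without any single library other than Mib1 mutant 2 or 3.

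Several genes outside these lists were also called between pairs. Kif1a, a kinesin of vesicle transport (ENSMUSG00000014602; chromosome 1, 93015464 to 93101951), was at 73.7, 53.4 and 64.7 CPM in the Mib1 mutant and 14.2, 20.1 and 16.1 CPM in the triple heterozygote, 3.75-fold higher (edgeR adjusted p 1.68e-06), with -0.02 in the control pair and 1.92 between pairs (edgeR adjusted p 0.00082). Dio2, the deiodinase that activates thyroid hormone, was at 42.9, 20.4 and 25.5 against 11.3, 9.49 and 10.3 CPM (2.86-fold, edgeR adjusted p 0.000741). Its difference between pairs of 1.57 (edgeR adjusted p 0.0303) was lost (0.0548 to 0.118) without any single Cre control, triple heterozygote or WT library. Gtsf1, a factor of the piRNA pathway, was at 2.38, 3.26 and 3.28 against 13.2, 13.8 and 9.81 CPM, 4.14-fold lower (edgeR adjusted p 2.07e-05; between pairs -1.77, edgeR adjusted p 0.00623).

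Scd4, a stearoyl-CoA desaturase of heart, was at 17.4, 12.9 and 13.1 against 6.71, 5.42 and 5.15 CPM (2.51-fold, edgeR adjusted p 0.000839; between pairs 1.37, edgeR adjusted p 0.0339). Lancl3, a LanC-like protein gene, was at 7.60, 5.13 and 7.33 against 3.36, 3.03 and 3.27 CPM. Here the triple heterozygote was below all 9 other libraries, and the Mib1 mutant overlapped WT (4.80 to 5.72 CPM). The log2 difference was 1.06 (edgeR adjusted p 0.00521; between pairs 1.31, edgeR adjusted p 0.0382). The between-pair calls of both were lost in 10 and 13 alternatives (0.0554 to 0.178 and 0.0548 to 0.189), among them without any single triple heterozygote library, Cre control 1 or 3, Mib1 mutant 1 or 3 or WT 1 or 2, and for Lancl3 also without Cre control 2 or WT 3.

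Blood genes were among those in which the triple heterozygote stood apart. Of 16 erythroid genes 7 were lower in the Mib1 mutant and 5 of these were called between pairs. Hbb-bs, an adult beta globin, was at 1874, 1329.8 and 1554 CPM in the Mib1 mutant and 2725, 3069 and 2887 CPM in the triple heterozygote. The Cre control held 1639, 1732 and 1843 CPM and WT 1846, 2053 and 1719 CPM, so the Mib1 mutant overlapped both and the triple heterozygote lay above all. Its log2 difference was -0.87 (edgeR adjusted p 0.00023), and -0.76 between pairs (edgeR adjusted p 0.0307), the latter lost (0.0548 to 0.112) without Cre control 2 or 3, Mib1 mutant 3, WT 1 or 3 or any single triple heterozygote library. The alpha globin genes Hba-a1 and Hba-a2, which share most of their sequence and cannot be counted apart with certainty, showed the same order, with log2 differences of -0.90 and -0.88 (edgeR adjusted p 0.000373 and 0.0003; between pairs -0.93 and -1.03, edgeR adjusted p 0.0184 and 0.00659). The call of Hba-a1 between pairs was lost (0.0501 to 0.0654) without Mib1 mutant 3, triple heterozygote 2 or WT 1 or 3. The blood left in a pool was not measured.

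Of 21 leukocyte genes 3 were called, all lower in the Mib1 mutant, beside 1.05% of all genes tested called lower. The log2 difference was negative in 20 of 21, with a median of -0.53 against 0.25 in the control pair. Genes of 1 cell type share libraries and scaling, so these signs are not independent. Lyz2, lysozyme of macrophages, was at 13.3, 15.1 and 8.88 against 27.9, 24.7 and 24 CPM (2.06-fold lower, edgeR adjusted p 0.00229; between pairs -1.20, edgeR adjusted p 0.0301). The latter was lost (0.0501 to 0.102) without Cre control 2 or 3, Mib1 mutant 1 or 3, triple heterozygote 1 or 2 or WT 2 or 3. C1qb, of complement C1q, was lower by a log2 difference of -0.72 (edgeR adjusted p 0.0063). Spp1, osteopontin, had differences of opposite sign in the pairs. It was at 7.98, 12.1 and 5.86 CPM in the Mib1 mutant and 28.8, 21.6 and 43.8 CPM in the triple heterozygote, whereas the Cre control held 35.4, 38.4 and 46.1 CPM and WT 19.8, 23.8 and 8.22 CPM. The direct difference was -1.84 (edgeR adjusted p 0.0082, and 0.0582 without the pools of 1 sex), the control difference 1.21 (edgeR adjusted p 0.171) and the difference between pairs -3.05 (edgeR adjusted p 0.00743).

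**Figure D4:**
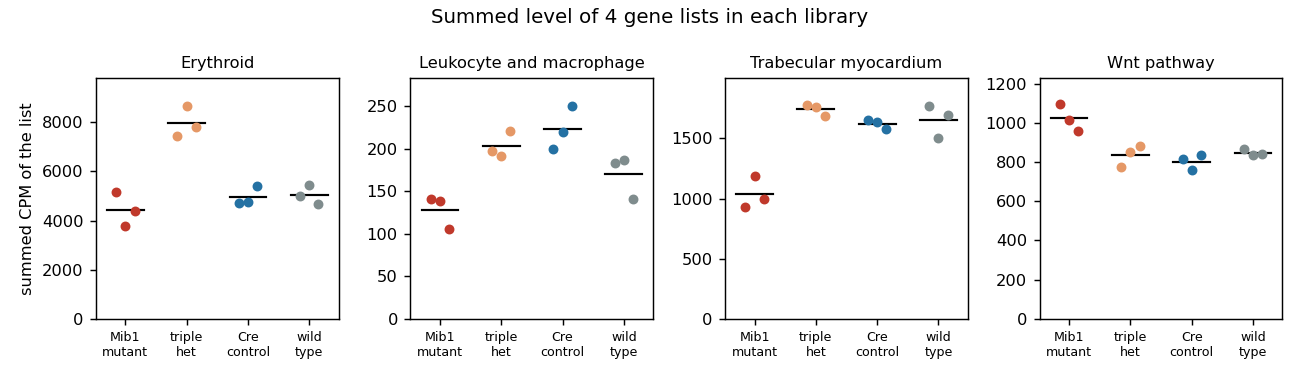
Summed CPM of 4 gene lists in each of the 12 libraries (points) with group means (lines), on axes that start at 0. The erythroid sum is highest in the 3 triple heterozygote libraries, whereas the trabecular sum is lowest and the Wnt pathway sum highest in the 3 Mib1 mutant libraries.

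The lists as a whole are given by counts and medians. In the control pair 0 of 749 tested list members were called by edgeR or limma-voom and 8 by DESeq2, and 70 had an unadjusted edgeR p under 0.05. In the direct pair edgeR and limma-voom called none of 39 Polycomb, 30 DNA replication, 30 mitotic and 29 fatty acid oxidation genes, with medians of 0.06, -0.15, -0.02 and -0.13. DESeq2 called 1, 2, 0 and 4 of them, and 3, 5, 0 and 11 had an unadjusted edgeR p under 0.05. Valve mesenchyme genes had the highest median among lists of 10 or more tested genes, 0.32 over 16 genes with 1 called (Tbx20), and trabecular genes the lowest, -0.56.

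**Figure D5:**
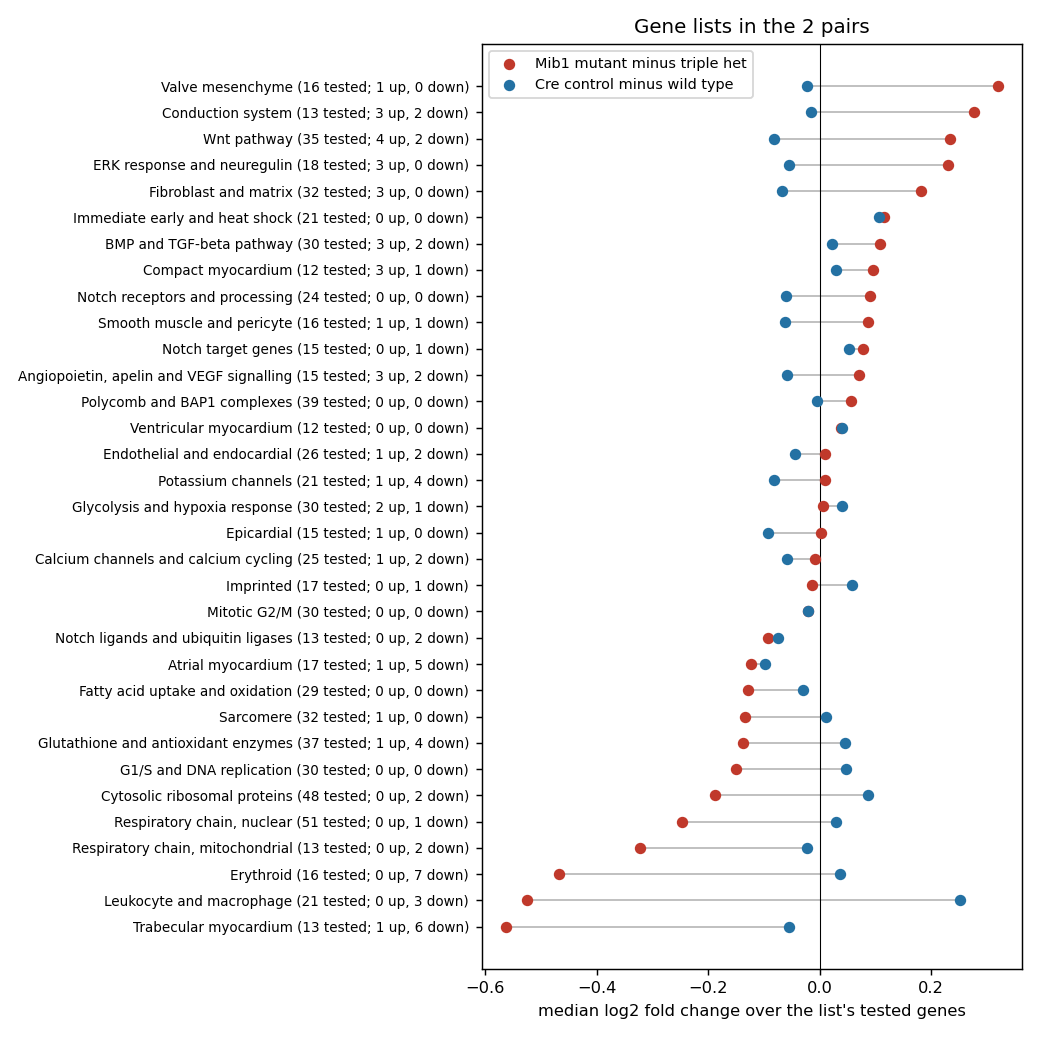
Median log2 fold change over the tested genes of each list with at least 10 of them, in the direct pair (red) and the control pair (blue), with the number of genes called higher and lower in the direct pair in the label. The trabecular, leukocyte and erythroid lists have the lowest direct medians, and the leukocyte list has a control median of 0.25, on the other side of 0.

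Of the 39 genes called in the control pair, 8 were called in that pair only and 2 in that pair and in the difference between pairs. The 8 had the same sign in both pairs, with a median size of the log2 difference of 0.80 in the control pair and 0.27 in the direct pair. The 2 had opposite signs. Aqp4, a water channel (ENSMUSG00000024411; chromosome 18, 15389496 to 15410982), had 39, 37.6 and 41.6 CPM in the Cre control and 60.8, 54.2 and 50.7 CPM in WT (log2 difference -0.49, edgeR adjusted p 0.0217), but 55.9, 55.9 and 61.7 CPM in the Mib1 mutant and 50.5, 46.1 and 52.3 CPM in the triple heterozygote (0.23, edgeR adjusted p 0.19). The difference between pairs was 0.71 (edgeR adjusted p 0.0152), and 0.0501 to 0.0574 without Mib1 mutant 3, triple heterozygote 2 or the pools of 1 sex. The predicted gene Gm10435 was the other gene called in the control pair and in the difference, at 0.51 (edgeR adjusted p 0.0402) and -0.68 (edgeR adjusted p 0.0408).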

How the data were processed

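PolyA RNA from pooled ventricles was sequenced from strand-specific libraries with 60-base single reads, as the labels' protocols state. RSEM, limma, cutadapt, bcl2fastq 2.20.0.422 and GRCm38 are named in the submitters' processing notes; which aligner and annotation were used is not given in the sources used here. Expected counts from RSEM were deposited by the authors in 1 table, in which reads that match several genes are divided between them, so near-identical genes are uncertain. Of its values 9.64% were not whole. The WT columns match the titles; for the other 9 the abbreviated alleles in the names decided, and the triple heterozygote columns by inference, since their names mention neither flox nor Cre. Of 38293 identifiers, 36429 were found in GENCODE M21, which gave symbols, positions and transcripts.

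The test was edgeR's quasi-likelihood F test on rounded counts (edgeR 4.0.16, R 4.3.3, two-sided, TMM scaling, filterByExpr). This kept 13964 genes with 99.9% of the counts. All 12 libraries entered 1 fit of 4 groups (8 residual degrees of freedom, common biological coefficient of variation 0.0982). Contrasts were Mib1 mutant minus triple heterozygote, Cre control minus WT, and the first minus the second. Benjamini-Hochberg adjustment covered all genes tested, with a threshold of 0.05. CPM use TMM-scaled library sizes, and SEs were derived from log2 fold changes and F. A fold against a group at 0 is a lower bound against 3 counts over that group, which covers counting error only. Chi-square per degree of freedom between replicates was 2.06 to 13.7, above the noise of sampling, and none was treated as a duplicate. Among called genes 6 rows held the same 12 values as another row of the table.

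The comparison, the 40 gene lists and the tests were chosen with earlier results of these data known. Named genes are Mib1, Asxl3 and Apcdd1, and from each set and direction the 6 with the largest difference (for the first set the smaller of the 2, for the second that between pairs). To these come up to 3 called in the control pair and in the difference but not the direct pair, and from each list with 2 or more called its 3 lowest p. For all but the list members a mean of at least 2 CPM and groups without overlap were required, and predicted genes and pseudogenes were passed over. Other genes were chosen after their values were seen, among them Mmrn1, Pou3f2, Thbs4, Adamtsl2, Bmp5, Angpt2, Apln, Kcnd3, Kcnj3, Sema3a, Slit2 and the pseudogenes. Calls of genes that are not named by these rules, Fzd6, Fzd8, Sfrp5 and Cox6a2 included, were not followed one by one through the alternatives. Where no lost call is given for such a gene, its stability is not known. Alternatives were median-ratio size factors, erythroid genes left out, no filter, a mean of at least 2 CPM, limma-voom (limma 3.58.1), DESeq2 1.42.0, a replicate block, a covariate for the pools' sex mix, pools of 1 sex left out, only the 6 libraries of a pair, each library left out in turn and, added after the data were seen, processed pseudogenes left out. 1 called gene is not reported here. The scripts were tested on simulated counts.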

Additional observations from a re-analysis of the deposited data

Results flagged for a closer look

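For 72 genes the effect in the direct pair (Mib1 mutant minus triple heterozygote) differed from that in the control pair (Cre control minus WT) by the test of the difference itself, with edgeR and Benjamini-Hochberg adjustment over all genes tested. Of these, 64 were also called in the direct pair. Among the named genes the log2 difference between pairs was positive for Cacna1g (2.04), Kif1a (1.92), Dio2 (1.57), Scd4 (1.37), Dkk3 (1.31), Lancl3 (1.31), Wif1 (1.29), Thbs1 (1.14), Tagln (1.10), Kcne1 (1.06), Etv5 (0.94), Spry4 (0.71) and Aqp4 (0.71). It was negative for Spp1 (-3.05), Bmp10 (-2.34), Angpt1 (-2.11), Gtsf1 (-1.77), Nppa (-1.58), Kcnd2 (-1.51), Gja5 (-1.26), Lyz2 (-1.20), Hba-a2 (-1.03), Kcnk3 (-1.01), Cited1 (-0.99), Gpx3 (-0.96), Hba-a1 (-0.93), Aplnr (-0.84) and Hbb-bs (-0.76). Of these 28 genes, 14 kept the call under every alternative tried.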

How the results depend on the processing

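The counts are given in the order direct pair, control pair, difference between pairs, first set (called in both pairs) and second set (called in the direct pair and the difference), and were 358, 39, 72, 29 and 64. With no filter on low counts they were 656, 144, 246, 59 and 181, and 343 of the 358 direct calls were among the 656. DESeq2 gave 557, 82, 167, 40 and 135. Without the pools of 1 sex they were 201, 45, 41, 32 and 35, with processed pseudogenes left out 362, 20, 82, 11 and 70, and in fits of 6 libraries alone 177 for the direct and 68 for the control pair. With the replicate number as a block they were 502, 59, 109, 35 and 95. Whether equal numbers mark paired pools is not given in the labels. After removal of the group means, same-numbered libraries correlated at -0.0285, 0.0571 and 0.1212 in the direct pair. In the control pair they correlated at 0.0624, 0.0597 and -0.089, and not every library correlated best with its own number. With 3 pools per group these values cannot decide whether pools were paired. Leaving out each library in turn gave 210 to 783, 23 to 46, 28 to 233, 22 to 31 and 28 to 192. The control count was 23 without WT replicate 1 and 25 without WT replicate 2. The cause of these shifts was not tested, beyond fewer samples or other genes entering. Median-ratio size factors, erythroid genes left out, a mean of at least 2 CPM, limma-voom and the sex covariate kept all 5 counts within 1.5 times. No named gene reversed its direction with a call, and of 58 named direct calls 43 held under every alternative. Depth limits the genes with few reads: 3 counts over a group correspond to 0.0694 to 0.0913 CPM.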
